A study of Mus musculus with 2 samples.

Results

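A small set of collagen-producing cells of the mouse colon carried transcripts of Epyc (epiphycan) together with Ptx3, Sfrp4, Itgbl1 or Tac1. The set was chosen by measured values, in UMIs (unique molecular identifiers, each counting 1 captured RNA molecule). A barcode entered it with at least 3 Epyc UMIs, at least 1 UMI of Ptx3, Sfrp4, Itgbl1 or Tac1, and at least 10 UMIs summed over the collagen genes Col1a1, Col1a2 and Col3a1. Barcodes with fewer than 500 genes, or with more than 10% of UMIs from mitochondrial genes, had been set aside. The rule found 92 cells of 19463 kept barcodes, which are called Epyc cells here, and the 14809 other cells that passed the collagen threshold are the other collagen-positive cells. What the rule used (Epyc, the 4 co-markers and the 3 collagen genes) describes the choice and supports nothing by itself.

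The cells came from 2 single-cell libraries of colon stromal cells, 1 for each genotype. The Cre library was made from Il10ra ff; Pdgfra-cre mice, in which the floxed Il10ra gene (the ligand-binding chain of the interleukin-10 receptor) is open to Cre recombinase made from Pdgfra, a gene of mesenchymal cells. The control library was made from Il10ra ff mice, which carry the same floxed alleles and no Cre. Each genotype is given as 2 mice aged 6 months whose cells share 1 library, so an animal cannot be told from another, and genotype cannot be told apart from library or mouse. Living cells of the whole colon were sorted as Podoplanin+ CD45- CD31- EpCAM- 7AAD- and read with a droplet kit that counts RNA from the 5′ end. With 1 library per genotype no test was possible, and all intervals given are 95% intervals that cover counting error only.

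Fibroblasts of the colon differ by layer. Those around vessels and in the outer layers are known for Pi16, Cd81 and Dpp4, whereas those under the epithelium are known for Sox6 and bone morphogenetic proteins. Epiphycan belongs to the small leucine-rich proteoglycans, extracellular proteins that bind collagen fibrils, and is best known from cartilage. Pentraxin 3 (Ptx3) is a secreted pattern-recognition protein that builds hyaluronan-rich matrix together with the product of Tnfaip6. Sfrp4 is a secreted protein that binds Wnt ligands, Tac1 encodes the precursor of substance P, Itgbl1 encodes a secreted protein with integrin-like repeats, and Wt1 encodes a transcription factor of mesothelium and some mesenchyme.

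The Cre library held 8627 barcodes and 66845139 UMIs, against 11380 barcodes and 76570611 UMIs in the control library. After the filter 8413 barcodes stayed in the Cre library and 11050 in the control library. Among all barcodes 115 sequences occurred in both libraries, and 1 Epyc cell shared its barcode with a cell of the other library, which was no Epyc cell. Epyc cells held a median of 13547 UMIs in the Cre library and 10304 in the control library, against 8731 and 7358 UMIs in the other collagen-positive cells of the same libraries. A rule on raw UMIs takes deeper cells more readily, and that depth gap stands beside each share given here. Il10ra itself had 0 UMIs in the Epyc cells of both libraries, which allows up to 3.67 CPM (counts per 1000000 UMIs) in the Cre library and 8.26 CPM in the control library, so it could not check the labels. Pdgfra, whose regulatory sequence drives the recombinase, had a UMI in 47 of 57 Epyc cells of the Cre library and in 27 of 35 of the control library.

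The annotated starts of Epyc, Ptx3 and Tac1 have unlike upstream sequence, shown here because these genes define the cells. Which start the cells used was not measured. The 250 bases before each start come from RefSeq on build GRCm38.p6, which is not the GRCm39 build of the counts. CG dinucleotides are in capitals.
Epyc, first listed start, chr10:97643818-97644067, plus strand: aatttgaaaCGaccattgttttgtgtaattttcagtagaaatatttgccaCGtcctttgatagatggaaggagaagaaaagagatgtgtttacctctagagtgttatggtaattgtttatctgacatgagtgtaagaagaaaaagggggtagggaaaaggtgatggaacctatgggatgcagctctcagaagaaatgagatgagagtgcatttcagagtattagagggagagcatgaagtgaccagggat
Epyc, second listed start, chr10:97646853-97647102, plus strand: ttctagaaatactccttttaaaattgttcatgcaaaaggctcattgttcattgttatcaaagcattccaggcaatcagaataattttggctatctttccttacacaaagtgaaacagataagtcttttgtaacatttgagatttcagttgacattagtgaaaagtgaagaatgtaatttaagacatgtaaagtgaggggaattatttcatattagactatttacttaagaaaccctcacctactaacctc
Ptx3, chr3:66219637-66219886, plus strand: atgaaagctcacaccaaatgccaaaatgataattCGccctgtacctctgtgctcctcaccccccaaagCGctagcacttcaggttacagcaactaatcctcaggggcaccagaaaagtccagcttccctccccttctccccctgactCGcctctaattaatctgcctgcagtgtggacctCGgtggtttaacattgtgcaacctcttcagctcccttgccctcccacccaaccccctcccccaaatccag
Tac1, chr6:7554811-7555060, plus strand: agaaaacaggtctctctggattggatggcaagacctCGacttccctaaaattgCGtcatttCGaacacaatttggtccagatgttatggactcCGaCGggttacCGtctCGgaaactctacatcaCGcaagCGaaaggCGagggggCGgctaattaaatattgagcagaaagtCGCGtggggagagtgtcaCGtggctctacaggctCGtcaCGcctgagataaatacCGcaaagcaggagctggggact
The Epyc windows held 2 and 0 CG dinucleotides at 39.2% and 31.2% G or C, and the Ptx3 window held 4 at 54.0%. The Tac1 window held 17 at 51.2%, above the median of 6 CG dinucleotides and near the median of 52.4% G or C over all 32851 windows of this length. Of 5 motifs searched on both strands, only CCAAT was matched in these windows, once, at position -231 to -227 of Tac1, read as ATTGG. That motif lies in 33.8% of all windows. The others were TATAAA (12.4% of windows), the AP-1 motif TGANTCA (6.75%), the STAT motif TTCNNNGAA (7.02%) and the NF-kB motif (1.41%). No match says only that these letters are not in these windows.

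Epyc cells made up a larger share of collagen-positive cells in the Cre library than in the control library. They were 57 of 5879 cells (0.970%, interval 0.735 to 1.25%) in the Cre library, against 35 of 9022 cells (0.388%, interval 0.270 to 0.539%) in the control library. The shares stood in a ratio of 2.50 (interval 1.61 to 3.92). Within clusters 6 and 4, which held most of them, the share of all cells of the cluster was not higher in the Cre library, as given with the clusters. Of all kept barcodes they were 0.678% in the Cre library and 0.317% in the control library. When every cell was first thinned to 3000 UMIs and the rule applied again, 18 Epyc cells remained in the Cre library and 7 in the control library, and the ratio of the shares was 5.76 with few cells behind it. Scrublet, a doublet caller, marked 1 Epyc cell in each library.

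The values around the threshold are a description, since cells inside it had to hold a co-marker such as Sfrp4 and cells outside it did not. In the Cre library 8 Epyc cells held 3 or 4 Epyc UMIs and 66 collagen-positive cells outside the set held 1 or 2, and Sfrp4 stood at 1388 CPM inside and 459.9 CPM outside. In the control library 13 Epyc cells held 3 or 4 UMIs and 46 collagen-positive cells held 1 or 2, with Sfrp4 at 925 CPM inside and 449.6 CPM outside. Pi16 stood at 601 CPM inside and 759 CPM outside in the Cre library, and at 3479 CPM inside and 3147 CPM outside in the control library. A further 14 collagen-positive cells of the Cre library and 4 of the control library reached 3 Epyc UMIs without any co-marker and stayed out.

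Per cell, Epyc (ENSMUSG00000019936) ran from 3 to 105 UMIs with a median of 13 in the Cre library, against 3 to 44 UMIs with a median of 6 in the control library. Cells that should lack Epyc held little of it, as a measure of free RNA: 1 of 184 smooth muscle gate cells of the Cre library and 0 of 739 of the control library held an Epyc UMI, where 0 allows up to 0.406%. Those cells had median depths of 7066 and 7094 UMIs. Cells gated by glia genes held an Epyc UMI in 0 of 88 of the Cre library and 1 of 54 of the control library. Cells gated by lymphatic genes did so in 0 of 52 and 1 of 55. The glia gate cells of the control library had a median depth of 4988 UMIs and the lymphatic gate cells one of 2658 UMIs. Among other collagen-positive cells the share with an Epyc UMI was 1.37% in the Cre library and 0.556% in the control library.

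Sfrp4 (ENSMUSG00000021319) was the most abundant co-marker. It had a UMI in 44 of 57 cells of the Cre library (0 to 443 UMIs, median 19), against 31 of 35 cells of the control library (0 to 98 UMIs, median 8). Summed over cells this was 3807 CPM in the Cre library and 1234 CPM in the control library. The ranges overlapped, and the highest cells were in the Cre library. Other collagen-positive cells stood far lower, at 105 CPM in the Cre library and 39.7 CPM in the control library.

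Ptx3 and Tac1 were patchier. Ptx3 (ENSMUSG00000027832) had a UMI in 30 of 57 cells of the Cre library (0 to 113 UMIs) and in 11 of 35 of the control library (0 to 6 UMIs), at 599 CPM in the Cre library and 63.4 CPM in the control library. Other collagen-positive cells with at least 3 Pi16 UMIs held Ptx3 at 107 CPM in the Cre library and 91.0 CPM in the control library. Ptx3 was thus lower in Epyc cells than in those cells of the control library. Tac1 (ENSMUSG00000061762) had a UMI in 33 of 57 cells of the Cre library (0 to 75 UMIs), against 7 of 35 of the control library (0 to 17 UMIs). The highest cell held 23.1% of the Ptx3 UMIs of the Cre library. Itgbl1 (ENSMUSG00000032925) was low and even, in 36 of 57 cells at 154 CPM in the Cre library and in 18 of 35 cells at 105 CPM in the control library. In smooth muscle gate cells, which should lack these genes, a UMI of Ptx3 was in 1.09% of the Cre library and 2.57% of the control library. Sfrp4 was there in 4.89% of the Cre library and 4.33% of the control library, Tac1 in 1.09% of the Cre library and 0.677% of the control library, and Pi16 in 4.89% of the Cre library and 6.36% of the control library. The rule raised the shares of Sfrp4, Ptx3 and Tac1 in Epyc cells, so only Pi16 can be set against these values.

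Few cells carried every marker. All 4 co-markers were present in 14 of 57 cells of the Cre library, against 1 of 35 in the control library, and exactly 1 of the 4 was present in 13 cells of each. In the Cre library 16 of 30 cells with Ptx3 had Tac1, against 17 of 27 cells without Ptx3. The rule asked for Epyc in every cell and took Sfrp4 as 1 of its 4 co-markers. That most cells held both in each library thus follows largely from the rule and is a description only. Ptx3, another of the 4, was missing from 24 of 35 cells of the control library.

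Wt1, a marker that the rule did not use, was found mostly in the Cre library. It had a UMI in 29 of 57 Epyc cells of the Cre library, at 96.7 CPM, against 1 of 35 of the control library, at 2.75 CPM. After thinning to 3000 UMIs it was in 26.8% of 56 cells of the Cre library and in none of 35 of the control library, where 0 allows up to 8.57%. With Wt1 in 29 and without it in 28 cells of the Cre library, Pi16 was found in 23 and 24 of them and Sfrp4 in 23 and 21. In smooth muscle gate cells it was in 0.543% of the Cre library and 0.135% of the control library. Other collagen-positive cells had Wt1 in 7.90% of the Cre library and 1.49% of the control library. Those with at least 3 Myoc UMIs held Wt1 at 64.7 CPM in the Cre library and 26.3 CPM in the control library, there above the Epyc cells.

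**Figure D1:**
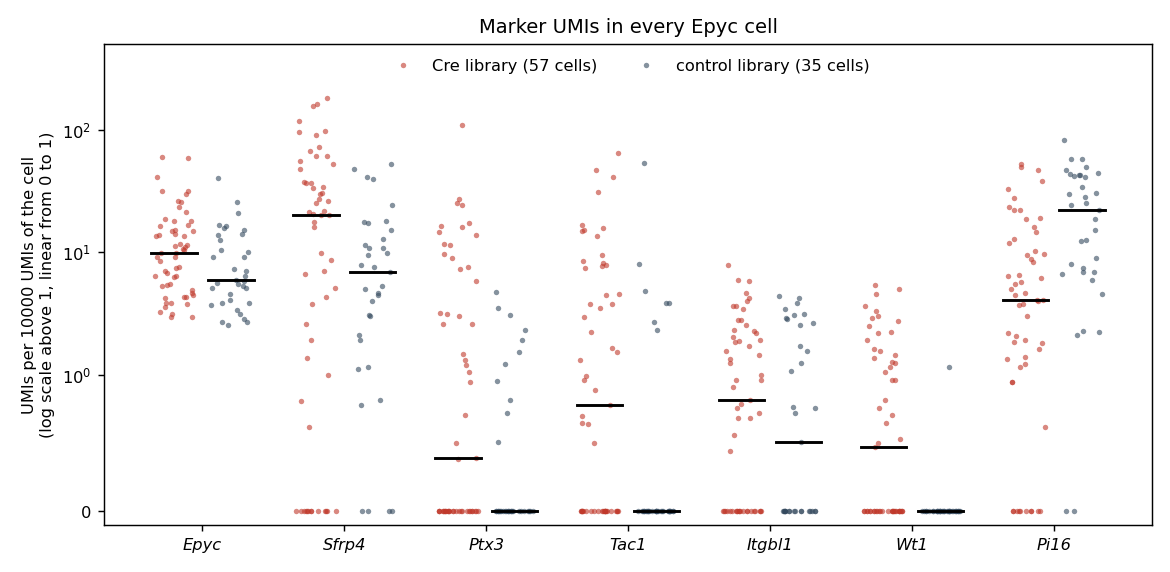
UMIs of 7 genes per 10000 UMIs of the cell, on a log scale above 1 and linear below it, in each of the 57 Epyc cells of the Cre library (left of each pair) and the 35 of the control library (right); each point is a cell and the black line the median over cells. Wt1 is above 0 in 29 cells of the Cre library and 1 of the control library, while Pi16 is above 0 in 47 and 33 cells.

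The cells carried fibroblast markers, in part because the rule and the sort asked for them. All 8 fibroblast markers were detected, but Col1a1, Col1a2 and Col3a1 were used by the rule and Podoplanin (Pdpn) by the sort. Of the 8, 0 were at least 2-fold higher in Epyc cells than in other cells, which are collagen-positive too. Dcn (decorin, a fibril-binding proteoglycan) stood at 14618 CPM in Epyc and 12128 CPM in other cells of the Cre library, and 13973 CPM in Epyc and 9487 CPM in other cells of the control library. Lum (lumican) stood at 2667 CPM in Epyc and 1699.6 CPM in other cells of the Cre library, and 2283 CPM in Epyc and 1423 CPM in other cells of the control library. Leukocytes, which the CD45- gate removes, had all 5 of their markers at 0 UMIs in both libraries. Mesothelial markers were at 0 for 6 of 8 genes in each library, Msln and Upk3b among them, with the summed level of 97.9 CPM in the Cre library nearly all Wt1, and that of 13.8 CPM in the control library Wt1 and Krt19. Smooth muscle markers summed to 113 CPM in Epyc cells against 505 CPM in other cells of the Cre library, and 46.8 against 1595 CPM in the control library. The highest Epyc cell of the Cre library held 55 UMIs of these markers, and the median cell held 0. Markers of interstitial cells of Cajal summed to 84.5 CPM in Epyc cells against 42.2 CPM in other cells of the Cre library. In the control library they summed to 11.02 CPM in Epyc cells against 57.4 CPM in other cells. The Epyc cell of the Cre library with the most held 45 UMIs of these markers, and the median cell held 0. Kit, a receptor of interstitial cells of Cajal, had 33 UMIs in 3 Epyc cells of the Cre library and 0 in the control library. Tendon markers were at 0 UMIs for 3 of 6 genes in the Cre library and 5 of 6 in the control library, and cartilage markers for 3 of 6 in the Cre library and 4 of 6 in the control library. The tendon list summed to 8.57 CPM in Epyc cells against 8.61 CPM in other cells of the Cre library, and 2.75 CPM in Epyc cells against 5.69 CPM in other cells of the control library. The cartilage list summed to 22.03 CPM in Epyc cells against 35.1 CPM in other cells of the Cre library, and 27.5 against 41.99 CPM in the control library, most of it Sox9, a factor that other tissues also use.

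Pi16, the peptidase inhibitor that marks adventitial fibroblasts, was in most Epyc cells. It had a UMI in 47 of 57 cells at 938 CPM in the Cre library, and in 33 of 35 cells at 2584 CPM in the control library. Other collagen-positive cells held 431 CPM in the Cre library and 463 CPM in the control library. Pi16 was not particular to Epyc cells. Other collagen-positive cells with at least 3 Myoc UMIs held it at 701 CPM in the Cre library and 1171 CPM in the control library. A Pi16 UMI was in 83.8% of them in the Cre library and 80.5% in the control library. Dpp4, a surface peptidase of the same list, stood at 46.5 CPM in Epyc and 13.8 CPM in other cells of the Cre library, and 121 CPM in Epyc and 9.80 CPM in other cells of the control library. Of the 7 adventitial markers measured, these 2 were at least 2-fold higher and 1, Grem1, at least 2-fold lower. The list medians were 0.016 in the Cre library and 1.55 in the control library, so the list was not high as a whole in the Cre library. At 3 or more Pi16 UMIs were 40 of 57 Epyc cells of the Cre library (70.2%, interval 56.6 to 81.6%), against 27.7% of the other collagen-positive cells, and 31 of 35 of the control library (88.6%, interval 73.3 to 96.8%), against 19.4%. Grem1, of the same adventitial list, went the other way. It reached 3 UMIs in 2 of 57 Epyc cells against 32.5% of other cells of the Cre library, and in 1 of 35 Epyc cells against 16.5% of other cells of the control library. Edil3 did so in 1 of 57 Epyc cells against 22.1% of other cells of the Cre library, and in 1 of 35 against 28.5% in the control library.

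Gates of other collagen-positive cells, drawn at 3 UMIs of Pi16, Myoc, Grem1, Kcnn3, Edil3 or Sox6, gave a scale of likeness. Across 8744 measured genes, Pearson's r of log2 levels between Epyc cells and the Pi16 gate was 0.922 in the Cre library and 0.913 in the control library. The Myoc gate came next, at 0.909 in the Cre library and 0.901 in the control library, and the Sox6 gate was lowest at 0.773 and 0.758. The Pi16 gate held 1614 cells of the Cre library and 1742 of the control library, and the Myoc gate 277 and 154. A cell could lie in more than 1 gate, and the part of gate size in r was not tested. Between the Epyc cells of the Cre and the control library r was 0.874. Points share libraries and depth, and genes are not independent, so these values order the gates and no more.

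Against the other collagen-positive cells of their own library, more genes were low in Epyc cells than high. At a fold of 2 in both libraries, 132 genes were higher (1.51% of the 8744 measured) and 416 lower (4.76%). The counts of gene lists against other cells are read beside these shares, and a list with a share near them shows nothing of its own. Measured means a mean of at least 10 CPM, and ratios carry 1 CPM added to each side. The median over all these genes was -0.21 on the log2 scale in the Cre library and -0.25 in the control library, and values are read against that shift. With median-of-ratios scaling, which removes it, the split was 187 higher and 296 lower.

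Regulators and secreted peptidase-family proteins led the higher genes, ranked by the smaller ratio of both libraries. Cpz (ENSMUSG00000036596), a secreted carboxypeptidase with a Wnt-binding domain, stood at 63.6 CPM in Epyc cells against 2.94 CPM in other cells of the Cre library, and 71.6 CPM in Epyc cells against 1.83 CPM in other cells of the control library. That is a fold of 21.6 (interval 15.5 to 29.7) in the Cre library and 39.1 (interval 24.6 to 59.96) in the control library. Prrx1 (ENSMUSG00000026586), a homeobox factor of limb and other mesenchyme, stood at 271 CPM in Epyc cells against 16.5 CPM in other cells of the Cre library, and 218 CPM in Epyc cells against 14.1 CPM in other cells of the control library. It had a UMI in 44 of 57 Epyc cells against 8.95% of other cells of the Cre library, and in 29 of 35 Epyc cells against 7.34% of other cells of the control library. Cpxm1, a secreted carboxypeptidase-like protein, stood at 209 CPM in Epyc and 26.9 CPM in other cells of the Cre library, and 245 CPM in Epyc and 26.6 CPM in other cells of the control library, and was in 44 of 57 and 27 of 35 Epyc cells. Both Prrx1 and Cpxm1 were thus in most Epyc cells of both libraries, whereas Rgs16, a brake on G-protein signalling, came from 16 of 57 and 5 of 35 cells.

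Serpinf1 and the chemokines Ccl2 and Ccl7 were among the abundant genes of the leading 20. Serpinf1, which encodes pigment epithelium-derived factor, was in every Epyc cell, at 1189.7 CPM in Epyc cells against 212 CPM in other cells of the Cre library, and 1727 CPM in Epyc cells against 228 CPM in other cells of the control library. Ccl2, a monocyte chemokine, stood at 3761 CPM in Epyc and 522 CPM in other cells of the Cre library, and 1771 CPM in Epyc and 232 CPM in other cells of the control library. Ccl7, its neighbour in function, stood at 2698 CPM in Epyc and 529 CPM in other cells of the Cre library, and 914 CPM in Epyc and 193 CPM in other cells of the control library. These chemokines were broad in the Epyc cells, with Ccl2 in 50 of 57 cells of the Cre library and 25 of 35 of the control library.

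The rest of the leading 20 held enzymes, binding proteins and an interferon-inducible gene. Plat, tissue plasminogen activator, stood at 676 CPM in Epyc and 139.7 CPM in other cells of the Cre library, and 619.7 CPM in Epyc and 130.2 CPM in other cells of the control library. Ace, angiotensin-converting enzyme, stood at 58.8 CPM in Epyc and 10.8 CPM in other cells of the Cre library, and 60.6 CPM in Epyc and 4.46 CPM in other cells of the control library. Apod, a lipid-binding lipocalin, stood at 646 CPM in Epyc and 113 CPM in other cells of the Cre library, and 619.7 CPM in Epyc and 44.6 CPM in other cells of the control library, but 1 cell held 41.3% of its UMIs in the control library. Fst, the activin-binding protein follistatin, stood at 79.6 CPM in Epyc and 11.3 CPM in other cells of the Cre library, and 113 CPM in Epyc and 11.3 CPM in other cells of the control library. The metalloprotease gene Adam33 stood at 28.2 CPM in Epyc and 4.30 CPM in other cells of the Cre library, and 79.9 CPM in Epyc and 5.47 CPM in other cells of the control library. Ifi205, of the interferon-inducible p200 family, stood at 826 CPM in Epyc and 170.1 CPM in other cells of the Cre library, and 578 CPM in Epyc and 48.4 CPM in other cells of the control library. Abi1, an actin regulator, was second by CPM among the 20 in the Cre library, at 2792 CPM in Epyc and 727 CPM in other cells of the Cre library, and 1490.1 CPM in Epyc and 330.3 CPM in other cells of the control library. The remaining 6 were Ces2g, Pals2, Angptl1, Sbsn, Uchl1 and Zbtb46, each with log2 ratios of 1.90 or more in both libraries.

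Lower in Epyc cells were genes of lamina propria and Grem1-positive fibroblasts. Adamdec1, a metalloprotease-like gene of the lamina propria, stood at 31.8 CPM in Epyc cells against 1063 CPM in other cells of the Cre library, and 113 CPM in Epyc cells against 1257 CPM in other cells of the control library. Grem1, a secreted antagonist of bone morphogenetic proteins, stood at 29.4 CPM in Epyc and 403 CPM in other cells of the Cre library, and 8.26 CPM in Epyc and 174 CPM in other cells of the control library. Lepr, the leptin receptor, stood at 14.7 CPM in Epyc and 177 CPM in other cells of the Cre library, and 5.51 CPM in Epyc and 101 CPM in other cells of the control library. Fgf10, a growth factor for epithelium, had 1 UMI in the Epyc cells of each library. Enpp5, Syt13 and Slco2b1 had 0 UMIs in the Epyc cells of the control library, and Dach1, Hpse and Aldh1a2 completed the lowest 10.

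**Figure D2:**
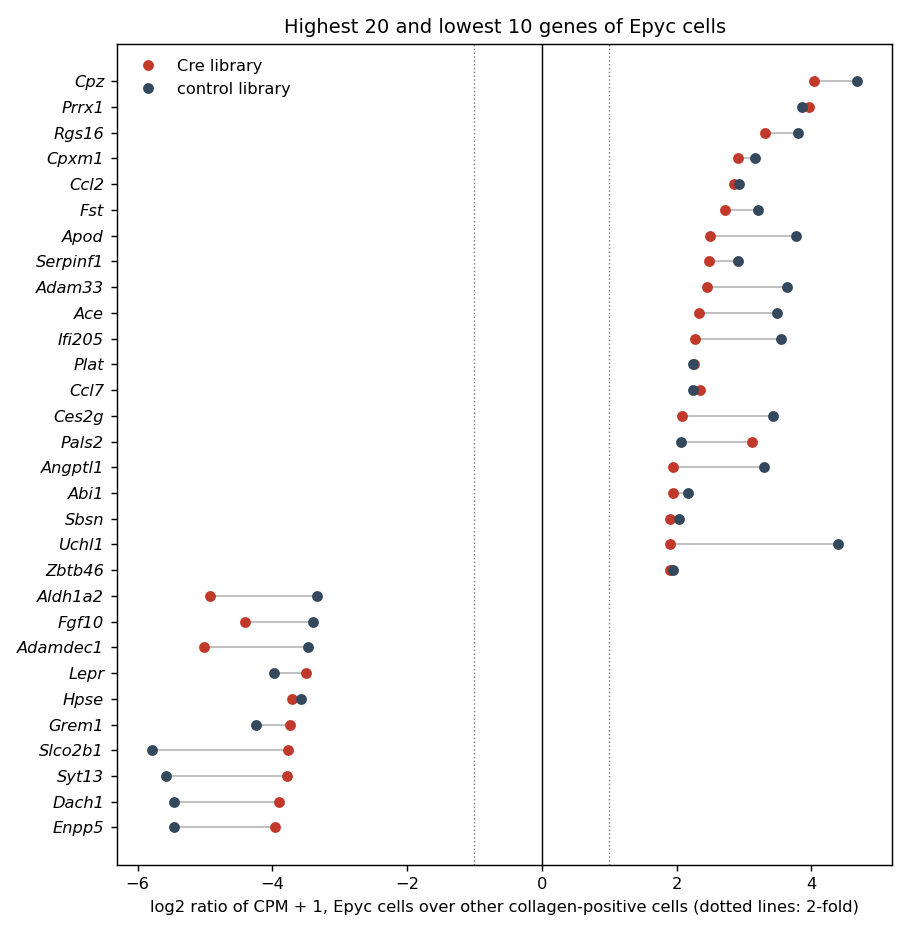
Log2 ratio of CPM + 1 in Epyc cells over other collagen-positive cells of the same library, for the 20 highest and 10 lowest genes, red for the Cre library and dark blue for the control library; dotted lines mark 2-fold. All 30 genes lie beyond 2-fold on the same side in both libraries, with Cpz highest at 4.03 in the Cre library and 4.68 in the control library.

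Against the Pi16 gate, which had the highest r of the 6 gates by a small margin, fewer genes stood apart. At a fold of 2 in both libraries 100 genes were higher in Epyc cells (1.2% of the 8367 measured) and 98 lower (1.17%). Of the 132 genes higher than in all other cells, 64 were also among these 100. Of the leading 20, 15 passed that fold over the Pi16 gate, and Ccl7, Ces2g, Abi1, Sbsn and Uchl1 did not. Across all 6 gates, each of the 20 was highest in Epyc cells of the Cre library, and 19 of 20 were in the control library, where the Myoc gate was higher for Apod. The 20 genes were ranked against the cells from which the gates were drawn. Their place above the gates thus follows largely from that choice and is a description only.

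**Figure D3:**
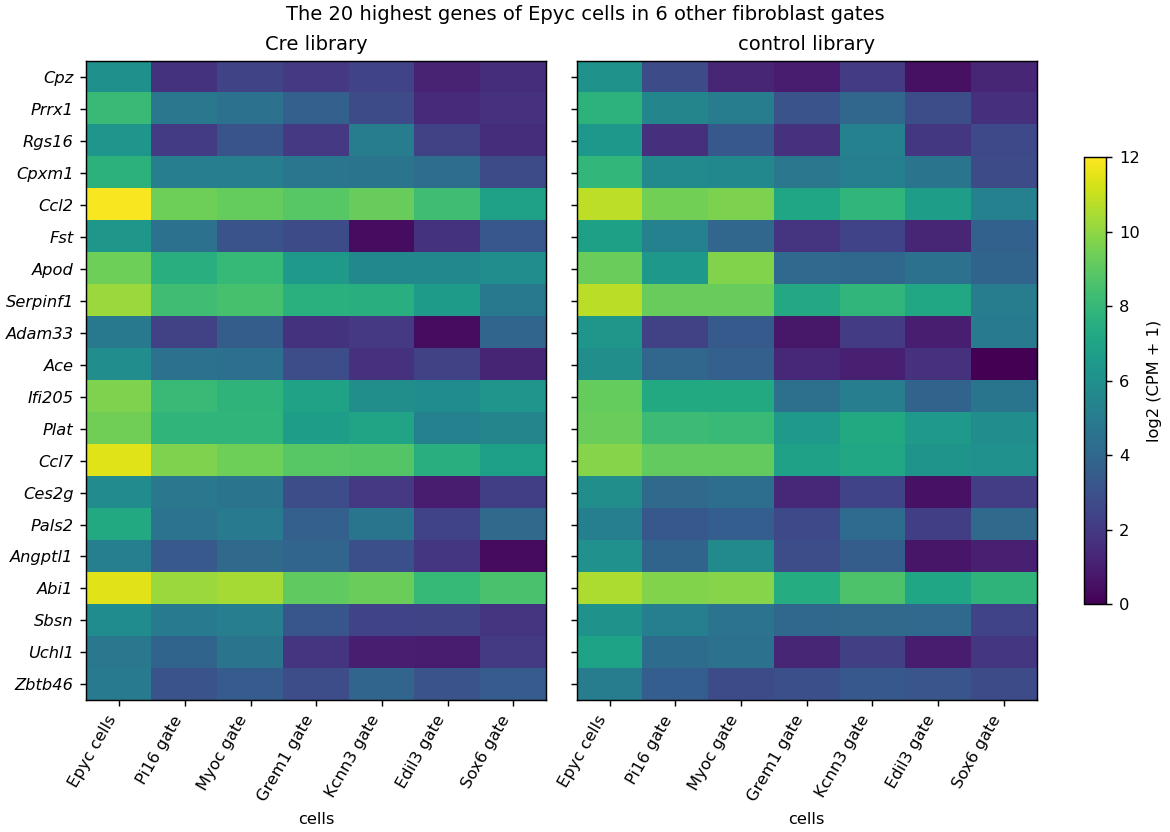
Levels, as log2 of CPM + 1, of the 20 highest genes of Epyc cells (rows) in Epyc cells and 6 other gates of collagen-positive cells (columns), with the Cre library left and the control library right. Ccl2 is among the brightest rows, at 3761 CPM in Epyc cells of the Cre library, and Apod in the Myoc gate of the control library is the one field where another gate exceeds Epyc cells. The genes were picked for high levels against the cells from which the gates were drawn.

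Among matrix genes Epyc cells were high in few and low in some. Epyc, Ptx3, Sfrp4 and Tac1 stand in these lists and were high by choice of the cells. Of the small leucine-rich proteoglycans 2 were at least 2-fold higher and 0 at least 2-fold lower of 11 measured, which were Epyc itself and Kera (keratocan, of cornea), with medians of -0.08 in the Cre library and 0.56 in the control library. Kera rested on 8 of 57 cells of the Cre library and 4 UMIs in 1 cell of the control library. Of collagen chains 0 were at least 2-fold higher and 4 at least 2-fold lower of 21 measured, with medians of -0.30 in the Cre library and -1.56 in the control library. Of matricellular and elastic fibre genes 3 were at least 2-fold higher and 2 at least 2-fold lower of 39 measured, the lower ones near the share over all genes, with medians of -0.15 in the Cre library and 0.12 in the control library. Lox, which cross-links collagen and elastin, stood at 257 CPM in Epyc and 63.9 CPM in other cells of the Cre library, and 105 CPM in Epyc and 40.99 CPM in other cells of the control library, while Postn (periostin) stood at 288 CPM in Epyc and 727 CPM in other cells of the Cre library, and 349.8 CPM in Epyc and 1922 CPM in other cells of the control library and Tnc (tenascin C) at 17.1 CPM in Epyc and 152 CPM in other cells of the Cre library, and 8.26 CPM in Epyc and 135 CPM in other cells of the control library.

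Genes that act with Ptx3 in hyaluronan matrix were high in part. Tnfaip6, whose product joins Ptx3 to hyaluronan, stood at 2809 CPM in Epyc cells against 1064 CPM in other cells of the Cre library, and 2319 CPM in Epyc cells against 864 CPM in other cells of the control library. In that list 2 were at least 2-fold higher and 1 at least 2-fold lower of 9 measured, the higher ones being Ptx3 and Tnfaip6, and its medians were 1.30 in the Cre library and -0.02 in the control library. The hyaluronan synthase gene Has2 and the hyaluronan receptor gene Cd44 were named after their values were seen. Has2 stood at 277 CPM in Epyc and 41.9 CPM in other cells of the Cre library, and 82.6 CPM in Epyc and 66.1 CPM in other cells of the control library, and Cd44 at 330.5 CPM in Epyc and 104 CPM in other cells of the Cre library, and 93.6 CPM in Epyc and 142 CPM in other cells of the control library.

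Several growth-factor genes were low against all other collagen-positive cells, and some of these values turned inside cluster 6. Of bone morphogenetic protein and TGF-beta ligands and antagonists, 22 measured, 1 was at least 2-fold higher, namely Fst, and 4 at least 2-fold lower. Their medians were 0.15 in the Cre library and -0.70 in the control library. Bmp4, a ligand of that family, stood at 99.1 CPM in Epyc and 404 CPM in other cells of the Cre library, and 190.1 CPM in Epyc and 602 CPM in other cells of the control library, and Bmp5 at 8.57 CPM in Epyc and 118 CPM in other cells of the Cre library, and 30.3 CPM in Epyc and 241 CPM in other cells of the control library. Of Wnt ligands and R-spondins 0 were at least 2-fold higher and 3 at least 2-fold lower of 9 measured, with medians of -0.45 in the Cre library and -0.13 in the control library. Wnt4 stood at 6.12 CPM in Epyc and 70.3 CPM in other cells of the Cre library, and 22.03 CPM in Epyc and 169 CPM in other cells of the control library and Wnt2b at 7.34 CPM in Epyc and 94.9 CPM in other cells of the Cre library, and 16.5 CPM in Epyc and 84.8 CPM in other cells of the control library. Against the other cells of cluster 6 alone, which holds most Epyc cells of the Cre library, the log2 ratio of Bmp4 was 0.89 and that of Wnt2b 0.70 in the control library, and that of Wnt4 was 0.38 in the Cre library. The Wnt4 value rested on 5 UMIs in 4 Epyc cells and that of Wnt2b on 3 UMIs in 2 Epyc cells, so neither shows a reversal. In the Cre library Bmp4 and Wnt2b stayed on the lower side there, Wnt2b with 2 UMIs. Wnt4 had 0 UMIs in the Epyc cells of cluster 6 of the control library, against 5.21 CPM in other cells, which is too few to place it.

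Of transcription factors of mesenchyme and mesothelium 5 were at least 2-fold higher and 10 at least 2-fold lower of 41 measured, with medians of -0.14 in the Cre library and -0.73 in the control library. Osr2, an odd-skipped factor of mesenchyme, stood at 78.3 CPM in Epyc and 21.2 CPM in other cells of the Cre library, and 116 CPM in Epyc and 16.4 CPM in other cells of the control library. Ebf3, an early B-cell factor family gene also used in mesenchyme, stood at 30.6 CPM in Epyc and 8.70 CPM in other cells of the Cre library, and 57.8 CPM in Epyc and 4.38 CPM in other cells of the control library. Tcf21, a factor of visceral mesenchyme, stood at 157 CPM in Epyc and 782 CPM in other cells of the Cre library, and 264 CPM in Epyc and 1101 CPM in other cells of the control library. Ebf3 and Tcf21 were named after their values were seen.

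Cytokine genes were found on both sides. In that list 4 were at least 2-fold higher and 6 at least 2-fold lower of 24 measured, with medians of -0.16 in the Cre library and -0.69 in the control library. The higher ones were Ccl2, Ccl7, Cxcl1 and Cxcl2, chemokines for monocytes or neutrophils, of which Cxcl1 stood at 4449 CPM in Epyc and 1557 CPM in other cells of the Cre library, and 2115 CPM in Epyc and 801 CPM in other cells of the control library. Cxcl12, a homing chemokine made by most stroma, stood at 377 CPM in Epyc and 1429.5 CPM in other cells of the Cre library, and 256 CPM in Epyc and 1172 CPM in other cells of the control library. Of matrix proteases and inhibitors 3 were at least 2-fold higher and 1 at least 2-fold lower of 28 measured, with medians of 0.02 in the Cre library and -0.48 in the control library, and Timp1, a metalloprotease inhibitor, stood at 1032 CPM in Epyc and 101 CPM in other cells of the Cre library, and 226 CPM in Epyc and 68.8 CPM in other cells of the control library. In the control library 1 Epyc cell held 50 Timp1 UMIs and no other held more than 7, so that level rests mostly on 1 cell. Of neuropeptides and vasoactive peptides with their receptors 3 were at least 2-fold higher and 3 at least 2-fold lower of 15 measured, with medians of -0.47 in the Cre library and 0.02 in the control library. The higher ones were Tac1, Ace and the natriuretic peptide receptor Npr1.

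Contractile genes were mostly lower. Of them 0 were at least 2-fold higher and 10 at least 2-fold lower of 16 measured, with medians of -1.36 in the Cre library and -2.68 in the control library. Against other cells of cluster 6 the medians were -0.04 in the Cre library and -0.70 in the control library. Of genes that respond to dissociation 2 were at least 2-fold higher and 2 at least 2-fold lower of 34 measured, with medians of -0.15 in the Cre library and 0.06 in the control library. The higher ones were Myc and Mt2, and the lower ones the heat-shock genes Hspa1a and Hspa1b, Hspa1a at 585 CPM in Epyc and 2346 CPM in other cells of the Cre library, and 669 CPM in Epyc and 2431 CPM in other cells of the control library. Of type I interferon response genes 2 were at least 2-fold higher and 3 at least 2-fold lower of 44 measured (medians -0.14 in the Cre library and -0.46 in the control library), and of MHC class I and peptide loading genes 0 were at least 2-fold higher and 2 at least 2-fold lower of 19 measured (medians -0.68 in the Cre library and -0.35 in the control library). Of interferon gamma response genes and GTPases 0 were at least 2-fold higher and 5 at least 2-fold lower of 24 measured, with medians of -0.57 in the Cre library and -1.09 in the control library, the control library's turning to 0.019 with at least 50 CPM. The lower type I genes were near the share over all genes. Of complement and acute phase genes 0 were at least 2-fold higher and 4 at least 2-fold lower of 15 measured, with medians of -0.49 in the Cre library and 0.47 in the control library.

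Clustering of all cells, done without the genes of the rule, spread the Epyc cells unevenly between the libraries. No step aligned the libraries before clustering, and the clusters held unlike numbers of cells of each library. Whether the uneven spread follows from that was not tested. In the Cre library 43 of 57 (75.4%, interval 62.2 to 85.9%) lay in cluster 6, 7 in cluster 3 and 2 in cluster 4. In the control library 15 of 35 (42.9%, interval 26.3 to 60.6%) lay in cluster 6 and another 15 in cluster 4. Cluster 6 was led by Myoc, Wt1 and Vit in the Cre library and by Apod, Myoc and Inmt in the control library, and cluster 4 of the control library by Pi16 and Ebf1. Even there Epyc cells were few, at 43 of 1208 cells of cluster 6 in the Cre library (3.56%) and 15 of 306 in the control library (4.90%). In cluster 4 they were 2 of 375 cells in the Cre library (0.533%) and 15 of 1252 in the control library (1.20%). In both clusters the share was thus lower in the Cre library, unlike that over all collagen-positive cells, with intervals that overlap between the libraries. The cluster shares are of all cells of the cluster, collagen-positive or not. Epyc cells formed no cluster of their own, and a comparison of the libraries over all Epyc cells mixes these positions.

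**Figure D4:**
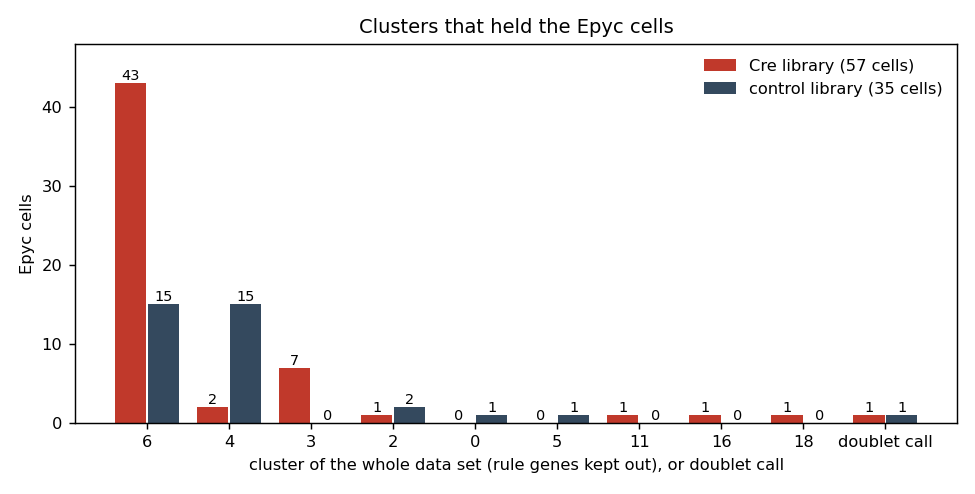
Number of Epyc cells in each cluster of the whole data set, red for the 57 cells of the Cre library and dark blue for the 35 of the control library; barcodes marked as doublets were not clustered. Cluster 6 holds 43 cells of the Cre library and 15 of the control library, and cluster 4 holds 2 and 15.

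Between the libraries, the Epyc cells of the Cre library held more RNA of interferon genes, of Mmp3 and Wt1, and less of Tnfsf9. The background of such differences was high: at a fold of 1.5, 1614 of the 8214 genes measured in Epyc cells were higher in the Cre library (19.6%) and 1382 lower (16.8%). In the other collagen-positive cells 371 of 9116 were higher (4.07%) and 319 lower (3.5%). The Epyc cells held 816988 UMIs in the Cre library and 363061 in the control library, so a gene near 10 CPM rests on a few UMIs, and counts in a list are read against 19.6% and 16.8%. The median over all genes was -0.00016 in Epyc cells and -0.05 in other cells.

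Of the 12 highest genes, 6 had no UMI in the control library's Epyc cells and are given as bounds against 3 UMIs. Csgalnact1, which starts chondroitin sulfate chains, had 73 UMIs in 29 of 57 cells of the Cre library and 0 UMIs in the control library, at least 10.8-fold higher. In other collagen-positive cells its fold was 2.13 (interval 1.96 to 2.33). Prg4, lubricin of joint and serosal surfaces, had 52 UMIs in 9 of 57 cells of the Cre library and 0 UMIs in the control library, at least 7.70-fold higher, with a fold of 1.93 (interval 1.33 to 2.82) in other cells. Stra6, a retinol transporter, had 51 UMIs in 4 of 57 cells of the Cre library and 0 UMIs in the control library, at least 7.55-fold higher, and 1 cell held 49.02% of the UMIs. Cxcl9 and Saa3, an interferon-induced chemokine and an acute phase protein, likewise rested mostly on 1 cell each, which held 75.4% and 85.5% of their UMIs. Ifit1, an interferon-induced RNA-binding protein, had 61 UMIs in 13 of 57 cells of the Cre library and 0 UMIs in the control library, at least 9.04-fold higher.

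The other 6 were counted in both libraries. Mmp3, the matrix protease stromelysin 1, stood at 189.7 CPM in the Cre library (19 of 57 cells), against 5.51 CPM in the control library (2 of 35 cells), a fold of 34.4 (interval 9.37 to 287). Its fold in other collagen-positive cells was 4.59 (interval 4.27 to 4.93). Wt1 had a fold of 35.1 with an interval from 6.12 to 1404, since the control library gave 1 UMI, against 3.70 (interval 3.27 to 4.19) in other cells. Iigp1, an interferon-induced GTPase, stood at 286 CPM in the Cre library (28 of 57 cells), against 11.02 CPM in the control library (3 of 35 cells), a fold of 26.00 (interval 10.02 to 96.2), against 9.83 in other cells. The related GTPase genes Igtp and Ifi47 had 60 and 88 UMIs in the Cre library and 1 and 2 in the control library. Bdkrb1, a bradykinin receptor gene, stood at 79.6 CPM in the Cre library (14 of 57 cells), against 5.51 CPM in the control library (2 of 35 cells).

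Tnfsf9 led the 12 lowest genes. It encodes a ligand of 4-1BB, a co-stimulatory receptor of T cells, and stood at 51.4 CPM in the Cre library (16 of 57 cells), against 551 CPM in the control library (22 of 35 cells), a fold of 0.0933 (interval 0.0653 to 0.131). In other collagen-positive cells its fold was 0.895 (interval 0.862 to 0.929). Ebf2, a mesenchymal factor, stood at 22.03 CPM in the Cre library (12 of 57 cells), against 146 CPM in the control library (19 of 35 cells), a fold of 0.151 (interval 0.0832 to 0.262), against 1.10 (interval 0.966 to 1.24) in other cells. Ccn5, a matricellular gene, stood at 24.5 CPM in the Cre library (8 of 57 cells), against 140.5 CPM in the control library (7 of 35 cells), but 1 cell held 60.8% of the control library's UMIs. Thy1, a surface protein of fibroblasts, stood at 31.8 CPM in the Cre library (14 of 57 cells), against 182 CPM in the control library (12 of 35 cells). Igfbp3, which binds insulin-like growth factors, stood at 35.5 CPM in the Cre library (9 of 57 cells), against 168 CPM in the control library (9 of 35 cells), and Ccn3, another matricellular gene, at 39.2 CPM in the Cre library (14 of 57 cells), against 146 CPM in the control library (16 of 35 cells). The other 6 were Tubb4a, Uchl1, Adamdec1, Qpct, Sash1 and H1f0, with folds of 0.151 to 0.312.

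**Figure D5:**
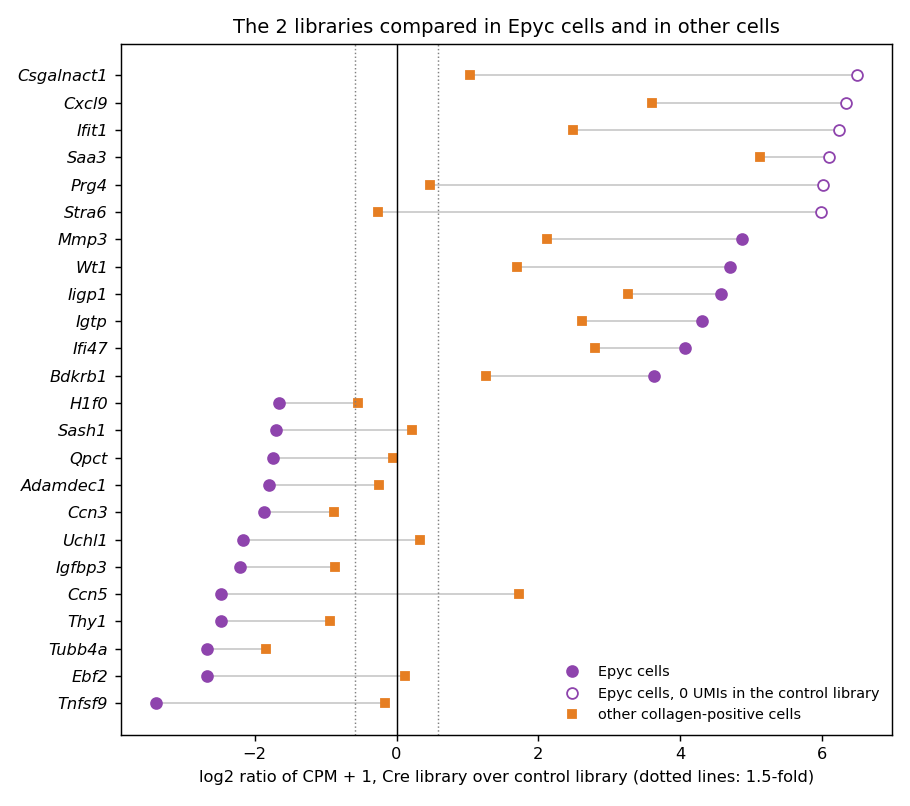
Log2 ratio of CPM + 1, Cre library over control library, for the 12 highest and 12 lowest genes of Epyc cells; circles are Epyc cells (open where the control library had 0 UMIs) and squares other collagen-positive cells, with dotted lines at 1.5-fold. Tnfsf9 lies at -3.40 in Epyc cells and -0.16 in other cells, and the squares of Iigp1, Igtp and Ifi47 lie on the same side as their circles.

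The interferon lists were higher in the Cre library in Epyc cells as in the others. Type I interferon response genes were 32 higher and 2 lower of 42 measured (median 1.10) in Epyc cells, against 36 higher and 0 lower of 44 (median 0.98) in other cells. Interferon gamma response genes and GTPases were 17 higher and 0 lower of 23 measured (median 2.59), or 2.45 with 3 genes at their bound, against 23 higher and 0 lower of 25 (median 2.16). That median in Epyc cells depended on the setting, at 0.54 with at least 50 CPM, 1.36 with 10 CPM added and 4.51 with the rule applied after thinning. MHC class I and peptide loading genes were 15 higher and 0 lower of 19 measured (median 1.41), against 18 higher and 0 lower of 20 (median 1.56). B2m, the light chain of MHC class I, stood at 1546 CPM in the Cre library (57 of 57 cells), against 581 CPM in the control library (34 of 35 cells), a fold of 2.66 (interval 2.30 to 3.09), and H2-D1, a heavy chain, had a fold of 2.70 (interval 2.34 to 3.14).

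Per cell, at 3000 UMIs each, the MHC list gave a median of 19.5 UMIs in Epyc cells against 27 in other cells of the Cre library, and 8 against 8 in the control library. The type I list gave 27.5 against 28 in the Cre library and 17 against 17 in the control library. No per-cell value was computed inside cluster 6. The median log2 ratio over genes weighs each gene alike. By that measure the MHC list in Epyc cells of the Cre library stood at 0.0064 over the other cells of cluster 6. Over all other collagen-positive cells it was -0.68. Of its abundant genes in cluster 6 of that library, B2m stood at 1379 CPM in Epyc and 1636 CPM in other cells. H2-D1 stood at 1421 CPM in Epyc and 1647 CPM in other cells there, so both remained lower.

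Chemokine and complement genes followed. Cytokine and chemokine genes were 14 higher and 1 lower of 21 measured (median 1.06) in Epyc cells, against 13 higher and 0 lower of 22 (median 0.81) in other cells. Ccl7 stood at 2698 CPM in the Cre library (46 of 57 cells), against 914 CPM in the control library (23 of 35 cells), a fold of 2.95 (interval 2.63 to 3.32) against 2.75 in other cells, and Ccl2 had a fold of 2.12 (interval 1.95 to 2.32). Complement and acute phase genes were 9 higher and 3 lower of 15 measured (median 0.85), against 13 higher and 0 lower of 17 (median 1.40). C3, the central complement protein, stood at 4252 CPM in the Cre library (57 of 57 cells), against 1649.9 CPM in the control library (33 of 35 cells), a fold of 2.58 (interval 2.36 to 2.82) against 4.83 in other cells. Ifi205, one of the genes that mark Epyc cells, had a fold of 1.43 (interval 1.22 to 1.68) in Epyc cells and 3.51 in other cells.

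For matrix genes the values of Epyc cells and other cells are set side by side, and the difference between them was not tested. Collagen chains were 9 higher and 0 lower of 19 measured (median 0.54) in Epyc cells, against 0 higher and 7 lower of 22 (median -0.34) in other cells. Col8a1, a short-chain collagen, stood at 187 CPM in the Cre library (28 of 57 cells), against 24.8 CPM in the control library (4 of 35 cells). Contractile genes were 6 higher and 1 lower of 9 measured (median 0.93), against 0 higher and 13 lower of 16 (median -1.39). In the other cells 7 of 8 smooth muscle markers were also lower (median -1.90), with 184 smooth muscle gate cells in the Cre library against 739 in the control library, and their part was not tested. Timp1 stood at 1032 CPM in the Cre library (46 of 57 cells), against 226 CPM in the control library (13 of 35 cells), a fold of 4.57 (interval 3.64 to 5.80) against 1.47 in other cells. The control library's level rests mostly on 1 cell with 50 Timp1 UMIs, which lay outside cluster 6. Has2 stood at 277 CPM in the Cre library (28 of 57 cells), against 82.6 CPM in the control library (13 of 35 cells), a fold of 3.35 (interval 2.28 to 5.08) against 0.633 (interval 0.602 to 0.666) in other cells. Cd44 had a fold of 3.53 (interval 2.46 to 5.20) in Epyc cells and 0.737 (interval 0.713 to 0.761) in other cells.

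Hyaluronan genes were 5 higher and 1 lower of 8 measured (median 1.26) in Epyc cells, against 2 higher and 3 lower of 8 (median -0.44) in other cells. That median in Epyc cells was 0.54 with no CPM minimum and 3.47 with the rule applied after thinning. Other lists were mixed. Matricellular and elastic fibre genes were 12 higher and 7 lower of 40 measured (median 0.01) and matrix proteases 10 higher and 7 lower of 28 measured (median 0.18) in Epyc cells. Genes that respond to dissociation were 1 higher and 8 lower of 34 measured (median -0.26), against 1 higher and 0 lower of 34 (median 0.03) in other cells, with Klf2 at 617 CPM in the Cre library (44 of 57 cells), against 1457 CPM in the control library (33 of 35 cells). The part of that handling signal in the other differences was not tested.

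Within cluster 6, which held 15 or more Epyc cells of each library, the libraries were compared again, an alternative added after seeing the data. Among 43 cells of the Cre library and 15 of the control library, Timp1 stood at 1161 CPM in the Cre library (37 of 43 cells), against 47.5 CPM in the control library (5 of 15 cells), a fold of 24.5 (interval 11.8 to 61.1). Sfrp4 stood at 4343 CPM in the Cre library (36 of 43 cells), against 1512 CPM in the control library (13 of 15 cells), a fold of 2.87 (interval 2.50 to 3.31). Ptx3 stood at 701 CPM in the Cre library (20 of 43 cells), against 47.5 CPM in the control library (2 of 15 cells). Wt1 was in 28 of 43 cells of the Cre library and 1 of 15 of the control library, whereas in the other collagen-positive cells of cluster 6 it was in 45.7% and 26% of them. Tnfsf9 stood at 37.9 CPM in the Cre library (10 of 43 cells), against 589.8 CPM in the control library (8 of 15 cells), a fold of 0.0643 (interval 0.0387 to 0.103).

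Some values were nearer to 1 inside cluster 6, or on the other side of it. Pi16 stood at 1011 CPM in the Cre library (35 of 43 cells), against 1389.8 CPM in the control library (13 of 15 cells), a fold of 0.727 (interval 0.620 to 0.856), whereas over all Epyc cells it was 0.363 (interval 0.329 to 0.400). Ebf2 had a fold of 0.395 (interval 0.152 to 1.10), Uchl1 of 0.876 (interval 0.313 to 3.02) and Qpct of 0.676 (interval 0.305 to 1.64), all with intervals that include 1. Of the 53 Ebf2 UMIs of the control library 40 were in Epyc cells of cluster 4. Thy1 had a fold of 1.16 (interval 0.384 to 4.67) and Adamdec1 of 1.34 (interval 0.292 to 12.4) there, both above 1. Has1, a hyaluronan synthase gene, had a fold of 1.05 (interval 0.876 to 1.28), against 0.603 (interval 0.546 to 0.667) over all Epyc cells. Against the other cells of cluster 6, Ptx3, Timp1, Ccl7 and Sbsn were no longer higher in Epyc cells of the control library, where they rest on 15 cells.

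Epyc cells were also split by their Epyc level, a value of the rule, as a description. The split went with cluster: in the control library 9 of 12 cells with 10 or more Epyc UMIs lay in cluster 6, and 13 of 23 with fewer lay in cluster 4. In the Cre library 28 of 33 with more and 15 of 24 with fewer lay in cluster 6. Cells with 10 or more Epyc UMIs were 33 against 24 with fewer in the Cre library, and 12 against 23 in the control library. Cav1, the coat protein of caveolae, stood at 294 CPM with more and 52.1 CPM with less Epyc in the Cre library, and 147 CPM with more and 44.04 CPM with less in the control library. Clu (clusterin, a secreted chaperone) stood at 168 CPM with more and 48.4 CPM with less Epyc in the Cre library, and 125 CPM with more and 13.2 CPM with less in the control library, and Eln (elastin) at 622 CPM with more and 301 CPM with less Epyc in the Cre library, and 927 CPM with more and 264 CPM with less in the control library. Penk, the precursor of enkephalins, stood at 277 CPM with more and 115 CPM with less Epyc in the Cre library, and 199 CPM with more and 79.3 CPM with less in the control library. Lower with more Epyc was Ebf1, a factor of adventitial fibroblasts here leading cluster 4, at 157 CPM with more and 465 CPM with less Epyc in the Cre library, and 162 CPM with more and 454 CPM with less in the control library, and Cd55, a complement inhibitor, at 378 CPM with more and 949 CPM with less Epyc in the Cre library, and 522 CPM with more and 1290.3 CPM with less in the control library. Tac1 stood at 779 CPM with more and 108 CPM with less Epyc in the Cre library, and 162 CPM with more and 141 CPM with less in the control library. These genes were picked for the ratio in both libraries, and deeper cells pass 10 UMIs more readily, with median depths of 15497 against 10438 UMIs in the Cre library and 11197 against 8956 UMIs in the control library.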

How the data were processed

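RNA of single colon stromal cells was read in 1 library per genotype. Per the labels, cells were captured with a 10x Genomics 5′ kit, and per the submitters' processing notes counts were made with Cell Ranger 8.0.1 on build GRCm39. The authors deposited filtered matrices of raw UMI counts per gene and barcode. A matrix of called cells is not proof that doublets were removed, so Scrublet (in scanpy 1.11.5, expected rate 8%) was run per library, and marked barcodes stayed in the main results.

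From these counts, UMIs were summed over Epyc cells and over other collagen-positive cells of each library and scaled to CPM. Ratios are log2 of CPM with 1 CPM added to each side, for genes that averaged 10 CPM or more over the groups compared. Calls mean at least 2-fold in both libraries between cell groups and at least 1.5-fold between libraries. No test was run, since each genotype had 1 library. Intervals are exact 95% intervals for counts and shares, and a count of 0 is read as up to 3 UMIs. All of these cover counting error only. Shares at matched depth used cells thinned to 3000 UMIs. Clusters came from 2000 variable genes without those of the rule, 30 components, 15 neighbours and Leiden resolution 1 (leidenalg 0.10.2), giving 20 clusters. Scripts were tested on simulated data.

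The cells, their markers and the gene lists were chosen with earlier results of these data known. Named genes are the rule's genes and its markers, the 20 highest and 10 lowest against other cells, the 12 highest and 12 lowest between libraries, and up to 6 genes of each list by rank or abundance. Pi16, Ebf3, Tcf21, Has2, Cd44, Dpp4 and the genes that vary with the Epyc level were named after their values were seen. Upstream sequences are from RefSeq on GRCm38.p6.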

Additional observations from a re-analysis of the deposited data

Results flagged for a closer look

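Among the genes and lists named above, 4 results lay on opposite sides of 0 between the libraries in Epyc cells and in other collagen-positive cells, each past 1.5-fold and, for the genes, with counting intervals that leave out 1. The difference was not tested. On the log2 scale, Cre library over control library, Ccn5 was -2.47 in Epyc cells and 1.72 in other cells, with 1 cell of the control library holding 60.8% of its UMIs there. Has2 was 1.73 in Epyc cells and -0.65 in other cells. Has1 was -0.73 in Epyc cells and 0.73 in other cells, and 0.08 in Epyc cells of cluster 6. The median of the contractile genes was 0.93 in Epyc cells and -1.39 in other cells, where 7 of 8 smooth muscle markers were also lower (median -1.90). Smooth muscle gate cells numbered 184 in the Cre library and 739 in the control library, and their part was not tested.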

How the results depend on the processing

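Results on shares and gene counts moved in 23 of 78 recomputed values. With Epyc at least 5 UMIs, the share was 0.244% in the control library. With Epyc at least 1 UMI, the share was 1.48% in the Cre library and the share was 0.720% in the control library. With at least 2 co-markers, the share was 0.244% in the control library. With collagen UMIs at least 30, the share was 1.53% in the Cre library. With the rule applied after thinning to 3000 UMIs, the share was 0.630% in the Cre library, the share was 0.109% in the control library, the ratio of shares was 5.76, 774 genes were lower in Epyc cells and 2302 genes were lower in the Cre library. With 10 CPM added, 86 genes were higher in Epyc cells, 235 genes were lower in Epyc cells and 876 genes were lower in the Cre library. With no CPM minimum, 245 genes were higher in Epyc cells, 1417 genes were lower in Epyc cells, 4788 genes were higher in the Cre library and 3453 genes were lower in the Cre library. With at least 50 CPM, 68 genes were higher in Epyc cells, 130 genes were lower in Epyc cells, 394 genes were higher in the Cre library and 291 genes were lower in the Cre library. With cluster 6 alone, 246 genes were lower in Epyc cells. With all kept barcodes as the denominator, the share was 0.678% in the Cre library. Of 3011 recomputed values of the genes and lists named here, 28 changed sign against a called value, and 699 others moved past their counting interval (genes) or by 1.5-fold (lists), most often in cluster 6 alone and after thinning. They were named with values in view, and over all 721 genes and all lists computed 340 of 28256 did. With at least 50 CPM, the log2 ratios became, for Epyc over other cells of the control library, the median of interferon gamma response and GTPases 0.019, the median of cytokines and chemokines 0.36. With cluster 6 alone, the log2 ratios became, for Epyc over other cells of the Cre library, the median of MHC class I and peptide loading 0.0064, Wnt4 0.38; for Epyc over other cells of the control library, Ptx3 -2.02, Ccl7 -0.33, Sbsn -0.62, Fgf10 0.20, Igfbp3 1.14, Wnt2b 0.70, Bmp4 0.89, Timp1 -0.86; for Cre over control, Adamdec1 0.39, Thy1 0.20, Has1 0.077. With the rule applied after thinning to 3000 UMIs, the log2 ratios became, for Epyc over other cells of the control library, Ces2g -2.22, Tnfaip6 -0.42, Timp1 -0.59, Igfbp5 -2.43, Cxcl2 -5.39; for Cre over control, Uchl1 2.12, Tubb4a 0.39, Kera -0.060, Has1 3.95. With Epyc at least 1 UMI, the log2 ratios became, for Cre over control, Adamdec1 0.87. With Epyc at least 5 UMIs, the log2 ratios became, for Epyc over other cells of the control library, Kera -0.63. With collagen UMIs at least 30, the log2 ratios became, for Epyc over other cells of the control library, Kera -0.75. With the cell with most UMIs left out, the log2 ratios became, for Epyc over other cells of the control library, Kera -0.57. The cause of these moves was not tested. At 3000 UMIs the rule left 18 Epyc cells in the Cre library and 7 in the control library. Wt1 was in 22.8% of Epyc cells of the Cre library at 2000 UMIs, against 50.9% unthinned. No paired analysis was possible because each genotype had 1 library. Depth limits the control library most, where 35 cells hold 363061 UMIs.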
